A study of Homo sapiens with 10 samples.

Results

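AZ-5576 inhibits CDK9, the kinase subunit of the elongation factor P-TEFb, and the data described here set K562 cells after 8 h with 1 µM AZ-5576 beside K562 cells after 8 h with its solvent, DMSO. K562 is an established human line from a chronic myeloid leukaemia in blast crisis, with erythroid features and a BCR-ABL1 fusion. The 2 libraries were chosen by their labels out of 10, and 11797 of the 59204 listed human genes were compared, namely those with a mean of at least 20 total reads over the 10 libraries. Both cultures had been fed 4-thiouridine at 30 µM over the preceding 12 h, with fresh medium every 3 h, so that RNA made in that time carried a label. They were then washed into 3 mM uridine, which ends the labelling, together with either agent. The DMSO culture therefore shares the pulse, the wash and the uridine with the AZ-5576 culture and lacks only the inhibitor. The other libraries used here as context are the one taken at 0 h, before any agent, those at 2 and 4 h of either treatment, and one after 8 h with 1 µM JQ1, which blocks the bromodomains of BET proteins. Each condition has 1 library, so no difference below has a replicate check, and no test was made.

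CDK9 phosphorylates RNA polymerase II and the factors that hold it near the promoter, and this releases the polymerase into the body of the gene. When the kinase is blocked, most protein-coding genes make little new RNA, and the level of each RNA is then set by how fast the existing molecules are lost. CDK9 inhibitors are studied in leukaemia because RNAs of survival and growth factors such as MCL1 and MYC turn over quickly. Transcription of the mitochondrial genome uses a separate polymerase, and small RNAs such as U6 and 7SL are made by RNA polymerase III.

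All values are reads per read of fly RNA, which was added at 5% to the purified RNA of each sample. They are therefore levels relative to the mass of purified RNA and not to the number of cells. Total reads are all human reads of a 3′ end library, labelled reads are those the authors deposited as nascent, and unlabelled reads are the remainder. Unlabelled reads can come from RNA made during the chase, from RNA older than the pulse and from labelled molecules whose read shows no changed base. The DMSO library held 16008906 total, 2113477 labelled and 1763347 fly reads, and the AZ-5576 library 12729708, 3247873 and 2366155. Ratios are given as a percentage of DMSO or as a fold, computed with 0.5 reads added to each count. Their 95% intervals are exact conditional intervals from the 2 counts. These intervals cover counting error only, since reads without molecular identifiers are not independent molecules. All 12 markers chosen for K562 identity were read in both libraries, with HBG1 the highest at 96862 reads in AZ-5576. Of 16 markers of other lineages, 4 had no read in either library, 10 with those included had at most 20 reads in each, and the highest was CD3D with 560 reads in DMSO and 352 in AZ-5576. The summed reads of these 16 markers were 693 in DMSO and 624 in AZ-5576.

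Human RNA as a whole was lower in AZ-5576. Each fly read was matched by 8.18 total human reads at 0 h, by 9.08 after 8 h in DMSO and by 5.38 after 8 h in AZ-5576, which is 59.3% of DMSO (59.2% to 59.3%). Unlabelled reads per fly read rose in DMSO from 5.56 at 0 h to 7.88, and were 4.01 in AZ-5576, which is 50.9% of DMSO. Labelled reads per fly read fell from 2.61 at 0 h to 1.20 in DMSO and to 1.37 in AZ-5576. The labelled pool in AZ-5576 was thus 114.5% of that in DMSO (114.3% to 114.7%). The labelled share of reads was 13.2% in DMSO and 25.5% in AZ-5576, against 32.0% at 0 h. Against the DMSO library of 4 h, which was earlier in the chase, labelled reads in AZ-5576 were at 0.740 times the control, so the excess holds only at the matched time.

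Gene by gene, the median total level was 32.2% of DMSO, and 11086 of the 11797 genes were lower in AZ-5576. Genes at least 8-fold below DMSO with an interval below 100% are called emptied here. They numbered 1506, or 12.8% of the genes compared. Genes at or above 80% that did not rise are called persisting, and numbered 1374, or 11.6%. Genes at or above 1.5 times DMSO with an interval above 1 are called risen, and numbered 168, or 1.42%. The median unlabelled level was 19.8% of DMSO over 11672 genes with at least 20 unlabelled reads in the 2 libraries, and 3553 of them (30.4%) were emptied, 984 (8.43%) persisted and 131 (1.12%) rose. The median labelled level was 121% of DMSO over 9283 genes, of which 9 (0.097%) were emptied, 5720 (61.6%) persisted and 2295 (24.7%) rose. On either side of the emptied threshold stood NAT10 at 12.4988% and WDR36 at 12.5001%, around the persisting one MMP24OS at 79.96% and RPL41 at 80.03%, and around the risen one HMGB1P10 at 148.7% and RBAK-RBAKDN at 150.1%.

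**Figure D1:**
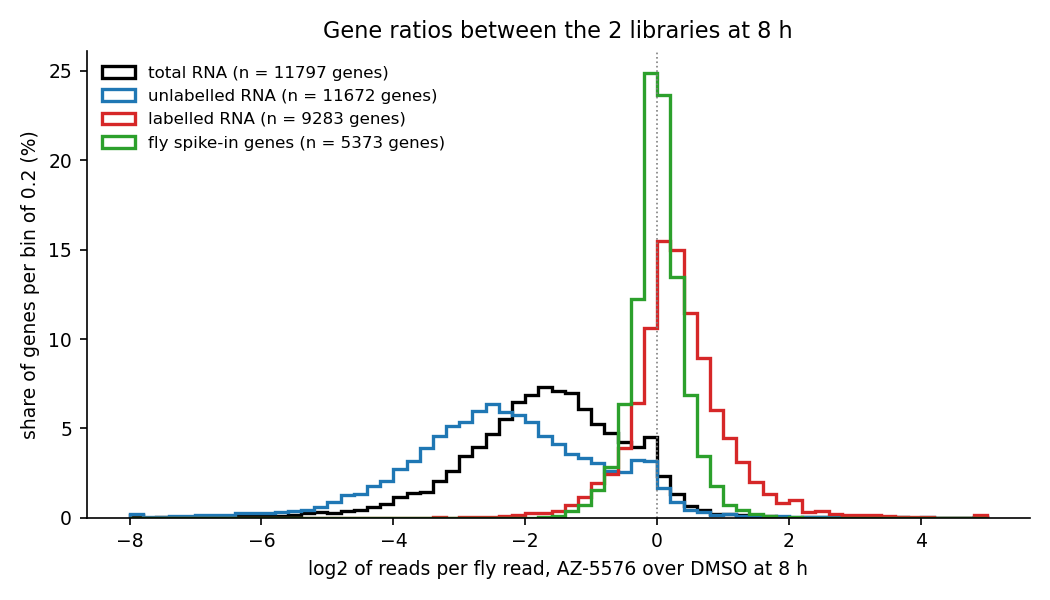
Share of genes (y axis, in %) by log2 of reads per fly read in AZ-5576 over DMSO at 8 h (x axis, log2 scale, values beyond the ends placed in the end bins), for total, unlabelled and labelled human RNA and for the fly genes of the same 2 libraries. The fly genes centre on 0, labelled RNA lies slightly to the right of it, and total and unlabelled RNA lie to the left with medians of -1.63 and -2.34.

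Other scales move all genes alike. Scaled by the human reads of each library, every ratio is 1.69-fold higher, and scaled by TMM, which takes most genes as unchanged, 2.98-fold higher, or 0.75 and 1.58 in log2. Of the 25 gene lists with at least 10 measured members described below, 1 had a median above 100% of DMSO on the fly scale, 5 on the human read scale and 14 with TMM. Which genes stand low or high relative to the others is the same on all 3 scales.

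The fly genes give a scale for these ratios, because the same fly RNA went into both libraries. Over 5373 fly genes with at least 40 reads in the pair, the standard deviation of log2 ratios was 0.41. It was 0.51 for genes with 40 to 200 reads, 0.25 up to 1000 reads and 0.12 above that. No fly gene was emptied, and none was 4-fold or more lower, against 4293 of 11618 human genes with as many reads. On the side of rises, 273 fly genes (5.08%) met the rule for risen, a larger share than among the human genes. A rise of 1.5-fold in a gene of few reads therefore lay within the spread of the fly genes. At 4-fold or more higher the counts were 42 of 11618 human and 6 of 5373 fly genes, and at 8-fold 21 human and 0 fly genes.

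The 10 lowest RNAs with at least 200 reads in DMSO were all below 1% of DMSO. B3GNT2, a glycosyltransferase that extends polylactosamine chains, went from 238 reads in DMSO to 0 in AZ-5576, at least 106-fold lower when 3 reads are taken as the floor. RIOX1, a nucleolar oxygenase, went from 602 reads to 1, which is 0.186% of DMSO (0.00313% to 0.692%). CITED2, a transcriptional coregulator, went from 486 reads to 2. Of 317 reads of C15orf39 in DMSO, 2 were left, as were 2 of 310 of HES1, the repressor induced by Notch signalling. TSKU, RPUSD2, EN1, BAMBI and HILPDA made up the rest. These 10 genes were at 1.45% to 21.6% of DMSO already at 4 h.

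MYC, the growth-promoting transcription factor, showed both sides of the difference. It stood at 236.5 total reads per 1000000 fly reads at 0 h, a unit called scaled reads below. In DMSO it read 159.8 at 2 h, 324.5 at 4 h and 710.0 at 8 h. In AZ-5576 it read 85.9, 10.9 and 5.92 at the same times. The 8 h values rest on 1252 and 14 reads, so that MYC was at 0.863% of DMSO (0.454% to 1.40%) and at 2.59% of its own 0 h level. Of the labelled MYC reads, 41 were left in DMSO and 0 in AZ-5576. Thus the DMSO level rose over the chase while the AZ-5576 level fell.

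MCL1, an antiapoptotic member of the BCL2 family, started at 937.3 scaled reads. It rose to 1588, 2152 and 2429 in DMSO and fell to 603.1, 355.5 and 157.6 in AZ-5576, which at 8 h was 6.497% of DMSO (5.82% to 7.21%). Labelled MCL1 differed little between the libraries, with 103 reads in DMSO and 116 in AZ-5576. Among the 12 measured genes of the BCL2 family 2 were emptied (16.7%, against 12.8% of all genes), none persisted and none rose. The median of the family was 24.0% of DMSO, against 32.2% over all genes, so the family as a whole lay near the background. The other emptied member was BBC3, which encodes the proapoptotic protein PUMA, at 3.08%. The antiapoptotic BCL2L1 was at 20.8%, and the proapoptotic BID was the highest of the family at 62.4%.

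**Figure D2:**
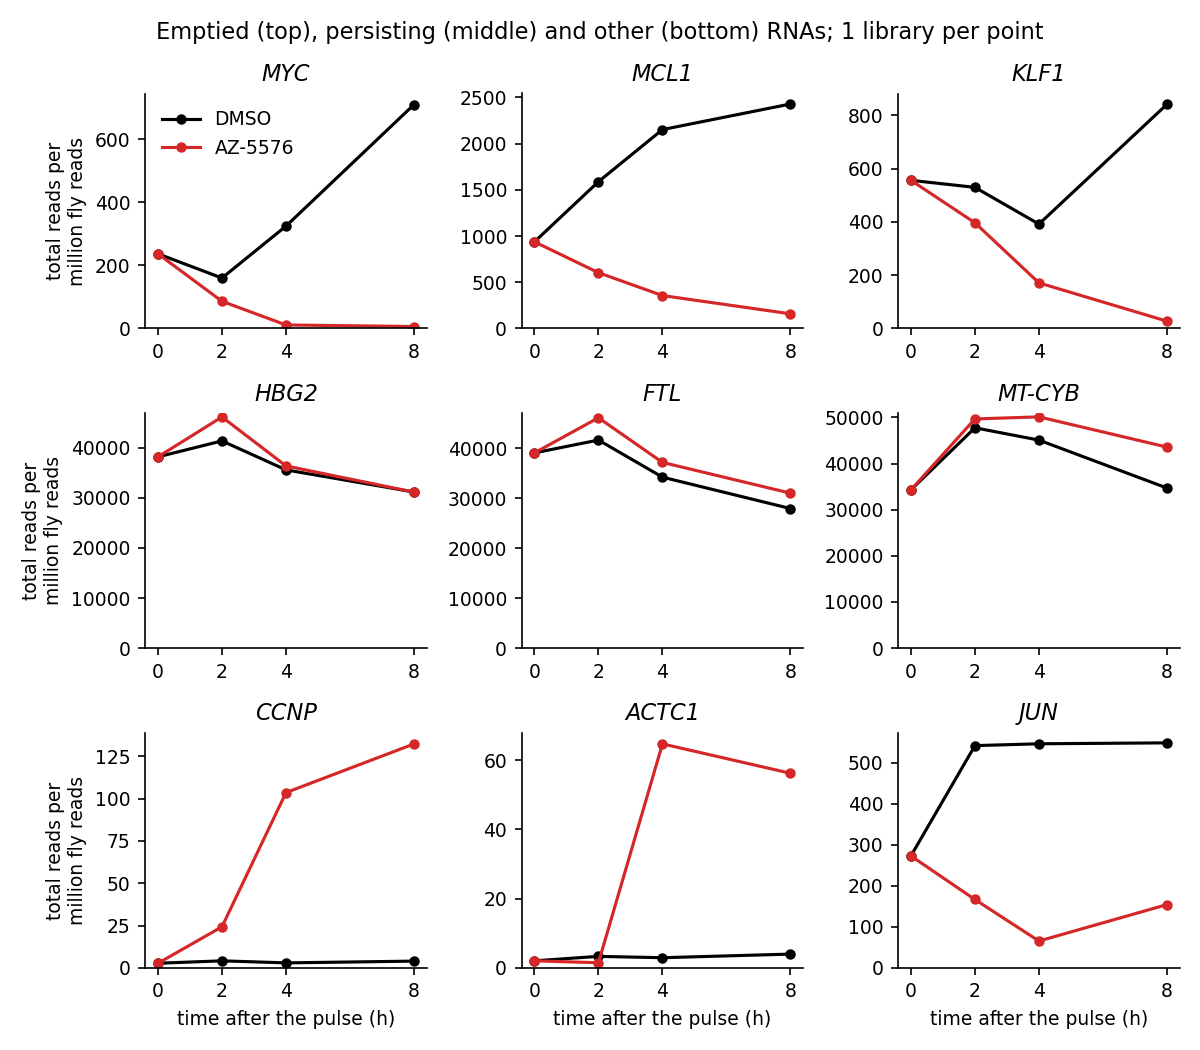
Total reads per 1000000 fly reads (y axis, linear, from 0) at 0, 2, 4 and 8 h after the pulse (x axis) for 9 genes in DMSO (black) and AZ-5576 (red), each point 1 library and the 0 h library shared. MYC, MCL1 and KLF1 fall in AZ-5576, HBG2 and FTL follow DMSO and MT-CYB lies above it, CCNP and ACTC1 appear from 2 or 4 h, and JUN falls to 4 h and is higher again at 8 h.

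Over all emptied genes the same 2 movements were seen. Their median level in AZ-5576 was 16.9% of the 0 h level, while in DMSO it was 2.26-fold above it. For all genes compared these medians were 49.6% and 1.43-fold. In AZ-5576 1497 of the 1506 were below 0 h (93.3% of all genes were), and in DMSO 1412 were above it (74.1% of all genes were). At 4 h, in 2 libraries that did not enter the thresholds of the classes, 1496 of the 1506 emptied genes were below DMSO (86.9% of all genes were), and 1326 were at or below 50% of DMSO (32.7% of all genes were). At 2 h their median was 63.5% of DMSO, against 84.0% for all genes. The labelled share of the emptied genes had a median of 59.4% at 0 h, 3.81% in DMSO and 40% in AZ-5576.

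**Figure D3:**
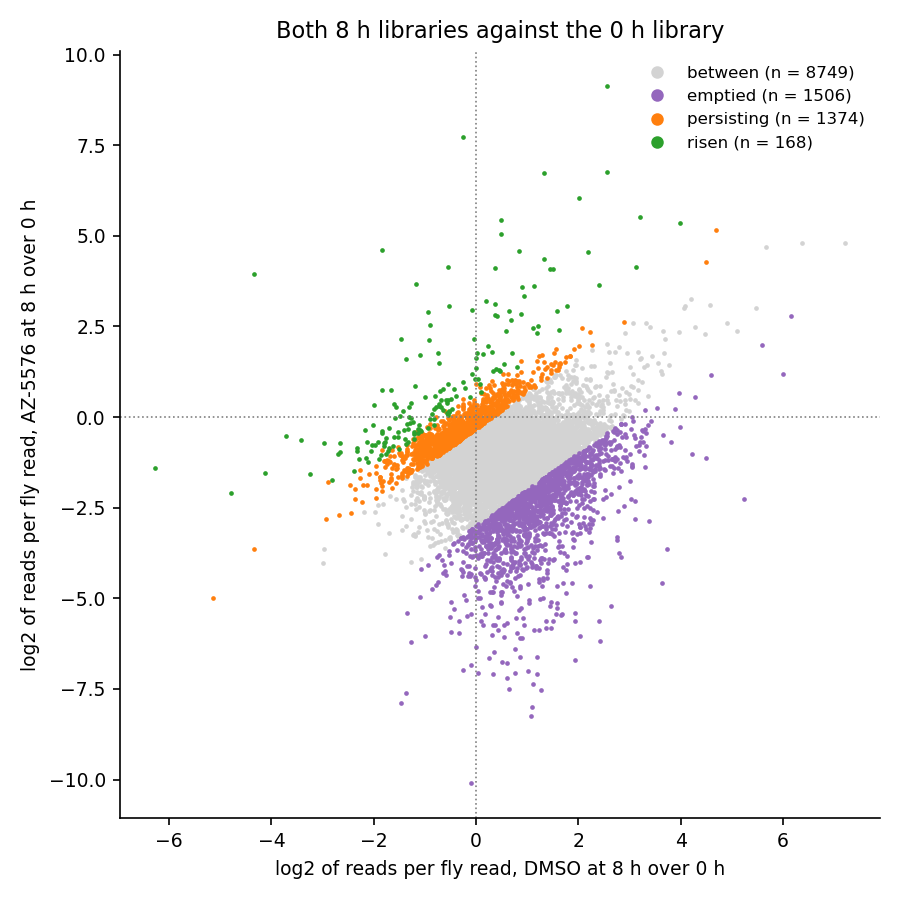
Each point is 1 of 11797 genes, with log2 of reads per fly read in DMSO at 8 h over 0 h (x axis) and in AZ-5576 at 8 h over 0 h (y axis), coloured by class. Nearly all emptied genes lie below 0 on the y axis and most above 0 on the x axis, persisting genes lie along the diagonal, and many risen genes lie above 0 on the y axis.

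Immediate-early and feedback regulators formed the list with the lowest median. Of 75 measured members 44 were emptied (58.7%, against 12.8% of all genes), 3 persisted (4%, against 11.6%) and none rose. Their median was 10.1% of DMSO, against 32.2% over all genes. SOCS3, a feedback inhibitor of cytokine signalling, had 616 reads in DMSO and 8 in AZ-5576 (1.03%), and fell from 102.7 scaled reads at 0 h to 1.47 within 2 h. CISH, of the same family, was at 2.27%, and the kinase gene PIM1 at 5.499%. DUSP1, a phosphatase that switches off MAP kinases, had 50 reads in DMSO and 0 in AZ-5576. The 3 members counted as persisting were FOS, DUSP8 and SMAD6, of which FOS had 10 reads in DMSO and 16 in AZ-5576. FOS was therefore too rarely read to place.

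Genes of numbered zinc finger proteins (ZNF genes, mostly repressors that bind DNA) behaved alike in number. Of 302 measured, 125 were emptied (41.4%, against 12.8% of all genes) and 5 persisted (1.66%, against 11.6%). The median was 14.8%, against 32.2% over all genes. Labelled RNA of 146 of these genes had a median of 146% of DMSO. Of 25 erythroid and leukaemia transcription factors 10 were emptied (40%) and none persisted, with a median of 15.7%. KLF1, an activator of adult globin genes, was at 556.2 scaled reads at 0 h. It read 529.8, 391.7 and 841.6 in DMSO and 396.7, 171.0 and 27.0 in AZ-5576, which at 8 h was 3.24% of DMSO (2.46% to 4.13%). GATA2, a stem and progenitor cell factor, was at 3.75%, GFI1B at 4.27%, NFE2 at 4.85% and MYB at 7.73%. TAL1 stood at 11.2% and GATA1, the main erythroid factor, at 28.1%. The 10 emptied factors were thus far below DMSO at 8 h, while GATA1 lay near the median of 32.2% over all genes. CBFB at 39.5% and MAFG at 53.1% were the highest of the list.

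Erythroid products were not low to the same degree as this list. Of 45 globins and other such products 2 were emptied (4.44%, against 12.8% of all genes), 13 persisted (28.9%, against 11.6%) and 1 rose. The median was 56.5%, against 32.2% over all genes. HBG2, a fetal globin, was at 38191 scaled reads at 0 h, at 31170 in DMSO and at 31153 in AZ-5576 at 8 h. This is 99.9% of DMSO (98.8% to 101%). HBG1 was at 101%, the embryonic globin HBZ at 109%, AHSP, the chaperone of alpha globin, at 104%, and the ferritin chains FTL and FTH1 at 111% and 97.1%. HBG1 and HBG2 are near-identical copies, so reads could be split between them. The 2 emptied members were SLC40A1, the iron exporter ferroportin, at 2.84%, and HEMGN at 12.0%, and TFRC, the transferrin receptor, was just above the threshold at 13.8%. The fetal and embryonic globin and ferritin RNAs named here therefore stood near their DMSO level and those of the iron carriers far below it. HBB, the adult beta globin, had 27 reads in DMSO and 231 in AZ-5576, 6.27-fold higher (4.27 to 9.88).

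Ribosomal protein RNAs persisted as a group. Of 83 measured, 72 persisted (86.7%, against 11.6% of all genes), 11 lay between the thresholds and none was emptied (12.8% of all genes were). The median was 91.4% of DMSO, against 32.2% over all genes. RPS27A was at 95.3% with 102899 and 131635 reads, RPS24 at 89.3% and RPS27 at 104%. The lowest was RPL39L, at 27.5%. Relative to 0 h the median of the list was 78.2% in AZ-5576 and 87.5% in DMSO. Ribosomal protein RNAs were thus slightly below their starting level in both libraries. Nuclear genes of oxidative phosphorylation followed, with 42 of 76 persisting (55.3%), none emptied and a median of 82.5%. UQCRH was at 95.6% and ATP5MG at 82.3%, whereas UQCRFS1, the Rieske iron-sulfur protein, was lowest at 24.2%. Genes of the mitochondrial ribosome differed from both, with 4 of 78 persisting (5.13%) and a median of 36.5%, near that of all genes. MRPL17 was emptied to 2.05% (673 to 18 reads).

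Of 11 mitochondrially encoded messengers 9 persisted (81.8%, against 11.6% of all genes), and the median was 112.5%, against 32.2% over all genes. Of 12 mitochondrial transfer RNA genes, which are not in this list, 5 persisted and 7 lay between the thresholds, with a median of 73.1%. MT-CYB, cytochrome b, was at 34277 scaled reads at 0 h, at 34685 in DMSO and at 43558 in AZ-5576, which is 126% of DMSO (124% to 127%). MT-ND2 was at 102%. MT-ND6, the one messenger on the light strand, was at 51.0%, and MT-CO1, with 156 and 133 reads, at 63.6%. Labelled reads made up a median of 0.23% of the reads of the 11 messengers in DMSO and 0.35% in AZ-5576. Copies of mitochondrial genes in the nucleus, such as MTATP8P1 and MTND1P23, were listed at 114% and 103%, and their reads cannot be told apart from those of the mitochondrial genes.

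Processed pseudogenes made up 435 of the 1374 persisting genes. Of 770 measured, 56.5% persisted and 1.04% were emptied, against 7.60% and 13.8% of the 9823 protein-coding genes. Such pseudogenes are copies of spliced messengers, many of them of ribosomal proteins, and their reads may belong to the parent gene. Of the protein-coding genes alone, 747 persisted and 1355 were emptied.

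The remaining lists lay in between, and are to be read against the 12.8% emptied, the 11.6% persisting and the median of 32.2% over all genes. Enzymes of glycolysis split, with 6 of 23 persisting, 3 emptied and a median of 65.5%. The emptied ones were the glucose carrier SLC2A3 at 5.90%, and the regulators PFKFB4 and PDK1 at 10.4% and 11.6%, while the enzymes ALDOA, LDHB and ALDOC were at 87.7%, 96.7% and 117%. Sterol and fatty acid synthesis had 7 of 27 persisting, with a median of 52.3%. SCD, the stearoyl-CoA desaturase, was at 106%. Proteasome genes had a median of 52.7%, hosts of small nucleolar RNAs 54.6%, splicing regulators 40.7% and translation factors 39.98%, with 1 emptied gene among the 130 members of these lists, RBM5 at 5.93%. Genes of G1/S, mRNA decay and mitosis had medians of 30.7%, 30.3% and 23.8%, and 4 of 40, 5 of 65 and 8 of 43 were emptied, shares around that of all genes. Nucleolar genes of ribosome biogenesis stood at 21.3% with 9 of 44 emptied, and genes of the integrated stress response at 17.3% with 9 of 26 emptied, among them DDIT4 at 1.05%. Of 20 heat shock genes 4 were emptied, including the cochaperone DNAJB1 at 4.06%, and the median was 35.2%. Of 20 histone genes 2 were emptied, 5 persisted and 1 rose, with a median of 72.5%, and copies of histone genes share sequence. Of 18 long noncoding RNAs 3 were emptied, and MALAT1 and NEAT1 stood at 57.2% and 17.9%.

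**Figure D4:**
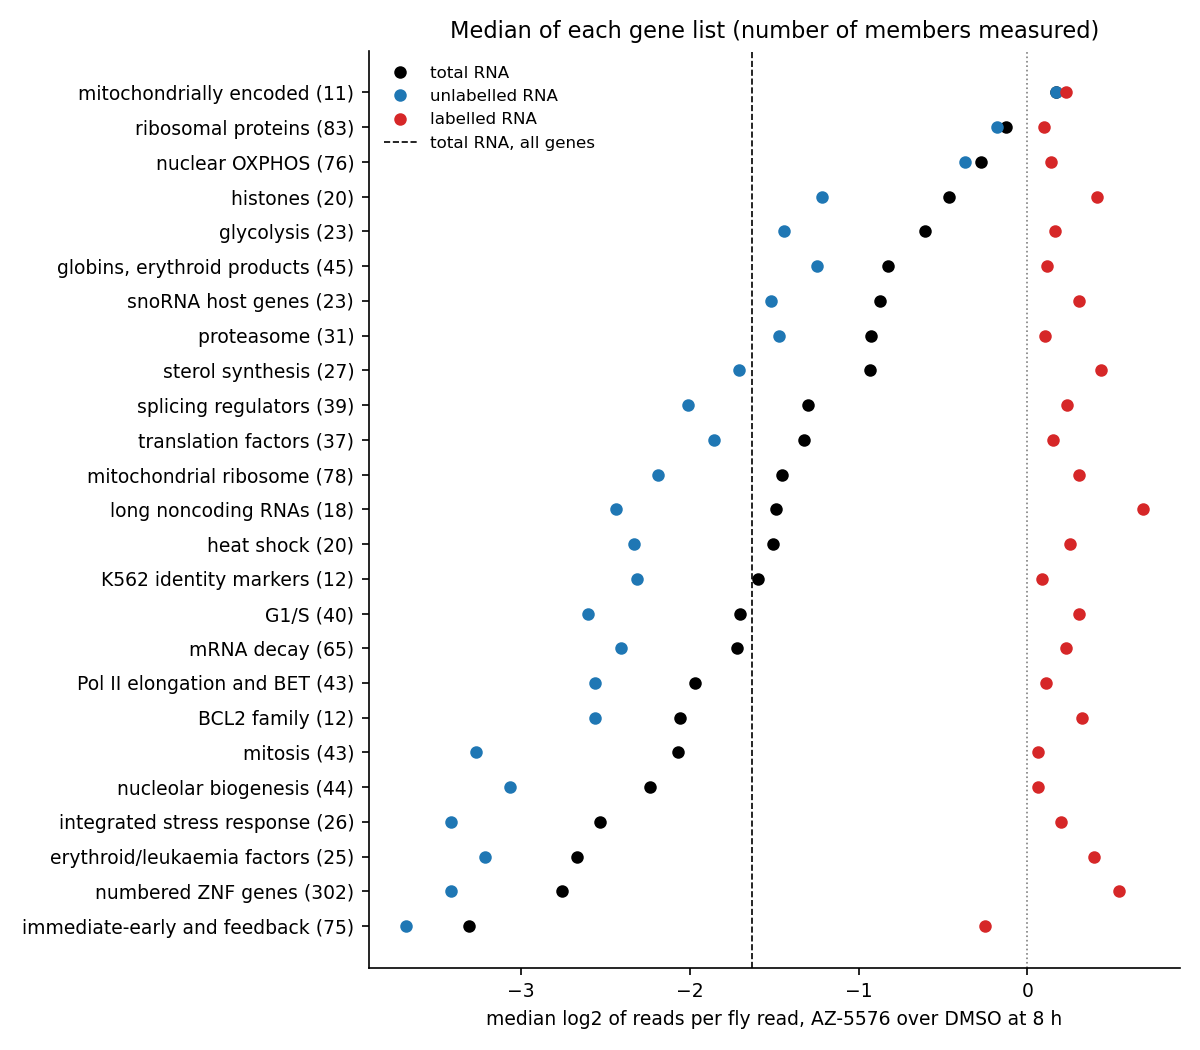
Median log2 of reads per fly read in AZ-5576 over DMSO at 8 h (x axis) for each gene list with at least 10 measured members (y axis, number measured in parentheses), for total (black), unlabelled (blue) and labelled RNA (red). The dashed line is the median of total RNA over all genes at -1.63. Total medians run from -3.30 to 0.17, while labelled medians lie near 0 or above in all lists shown but the immediate-early one, at -0.25.

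Genes of the transcription machinery that the inhibitor acts on lay near the background as a group. Of 43 measured genes of polymerase II elongation and BET proteins 7 were emptied (16.3%, against 12.8% of all genes), 3 persisted and none rose, with a median of 25.5% against 32.2% over all genes. HEXIM1, which holds P-TEFb inactive within the 7SK particle, went from 1000 to 83 reads (6.22%), and MEPCE, the enzyme that caps 7SK RNA, was at 4.64%. CCNT1, the cyclin of P-TEFb, was at 31.3%, and its labelled reads were 39 in DMSO and 181 in AZ-5576. POLR2A, the large polymerase subunit, was at 19.6%, and BRD2 at 23.6%. The elongation kinases CDK12 and CDK13 were emptied, at 10.1% and 7.30%. The polymerase subunits POLR2E and POLR2G and the pausing factor NELFE persisted, at 91.7%, 93.6% and 81.2%. The members of this list therefore ran from 4.64% to 93.6% of DMSO.

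Genes with few exons were emptied more often. Among 9478 protein-coding genes whose chosen GENCODE transcript has a 3′ untranslated region of at least 50 bases, 94 of 179 genes with 1 exon were emptied (52.5%), and 172 of 391 genes with 2 exons (44.0%). The share was 25.2% at 3 exons, 20.3% at 4, 14.1% at 5 and 9.81% over 6974 genes with 6 or more. The median level was 11.3% of DMSO at 1 exon, 14.9% at 2 and 30.1% at 6 or more. Genes of 1 or 2 exons were emptied in 46.7% of cases, and genes of 3 or more in 11.9%. With ZNF and immediate-early genes left out, these shares were 45.5% and 10.7%. Among genes without any basic transcript of more than 2 exons the share was 49.3% of 458. In DMSO, labelled RNA of genes with 1 exon had fallen by 4 h to a median of 41.1% of its 0 h level, against 66.1% for genes with 6 or more. Genes with few exons thus also lost their label faster in the untreated chase.

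**Figure D5:**
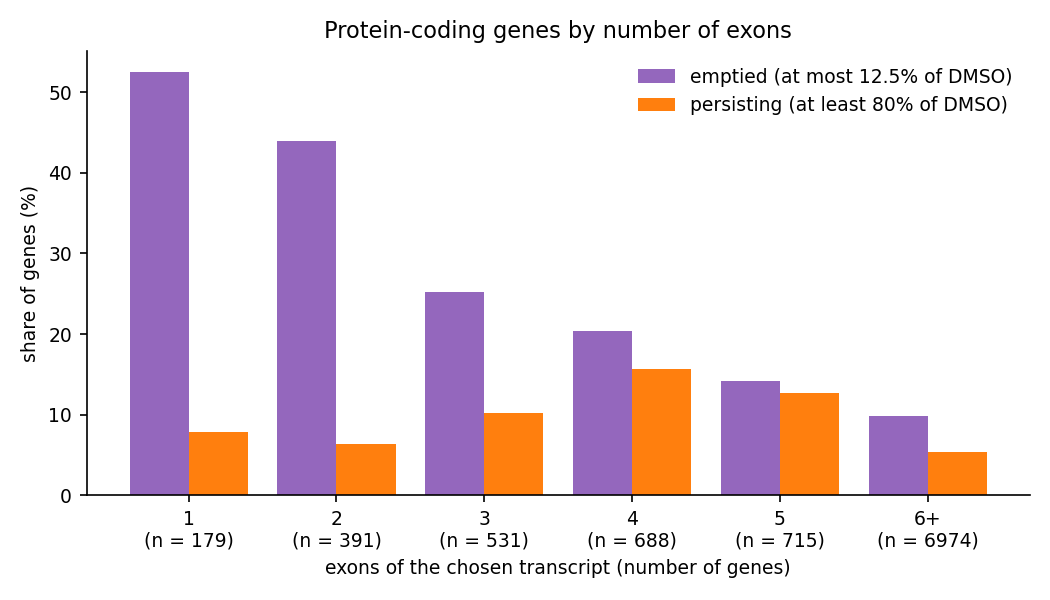
Share of protein-coding genes (y axis, in %, from 0) that were emptied (purple) or persisted (orange), by the number of exons of the chosen transcript (x axis, number of genes below). The emptied share falls from 52.5% at 1 exon to 9.81% at 6 or more, while the persisting share is highest at 4 exons, at 15.7%.

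Loss of label in the DMSO chase gives a measure from other libraries. The 7531 genes with at least 50 labelled reads at 0 h were ordered by how much labelled RNA was left at 4 h in DMSO and cut into 5 groups of like size. In the group that lost label fastest, with a median of 34.2% left, 29.4% of genes were emptied by AZ-5576 at 8 h and the median total level was 20.5% of DMSO. In the slowest group, with 94.0% left, 4.05% were emptied, 19.7% persisted and the median was 42.5%. Across genes, the labelled change and the total log2 ratio at 8 h had a Pearson correlation of 0.39 and a Spearman correlation of 0.34 (n = 7531 genes, which are not independent replicates). The 2 measures share no library, but both rest on counts of 3′ ends.

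Sequence features of the messengers differed between classes too. The 3′ untranslated region had a median length of 1242 bases in emptied, 382 in persisting and 1012.5 in all 9478 genes. The coding length had a median of 1539 bases in emptied and 727.5 in persisting genes. The pentamer ATTTA, the core of AU-rich elements that recruit decay factors, was found on the messenger strand in 77.1% of the regions of emptied genes, 40.3% of those of persisting genes and 68.9% of all. Per 1000 bases its median was 1.88, 0 and 1.59. The nonamer TTATTTATT, which contains the pentamer, was found in 10.2%, 3.44% and 7.99%. The share in emptied genes was thus near that of all genes, and the shares were not adjusted for the length of the region. FAM216A (6.16% of DMSO) and FOS (10 and 16 reads, counted as persisting) carry the nonamer too and are not printed. A match describes these letters and is not a site of binding. The first nonamer of each region is shown in capitals below with its flanks, 5′ to 3′ on the strand of the gene. PIM1 has 3 copies and CISH 2, and their further copies overlap the capitals and run on in small letters. Emptied genes are shown beside CPEB4, which encodes a regulator of cytoplasmic polyadenylation and carries the nonamer but was at 58.9% of DMSO. The sequences are from GENCODE v29 transcripts (GRCh38).
B3GNT2 (chr2:62224383-62224411, plus strand, 0.156% of DMSO): gcctgtgtttTTATTTATTgttcagatca
MRPL17 (chr11:6681906-6681934, minus strand, 2.05%): atatataaatTTATTTATTttttccttcc
CISH (chr3:50607094-50607122, minus strand, 2.27%): tatacactatTTATTTATTtattctcctt
PIM1 (chr6:37174985-37175013, plus strand, 5.499%): tgttatgtatTTATTTATTtatttatttg
SLC2A3 (chr12:7920927-7920955, minus strand, 5.90%): aacttgagttTTATTTATTttatcctctg
CPEB4 (chr5:173956922-173956950, plus strand, 58.9%): gggagtgcacTTATTTATTtaacttactt

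The genes that rose fell into groups by their 0 h level. Of 168 risen genes, 72 were also at least 1.5-fold above the 0 h library with an interval above 1, with a median of 6.07-fold over 0 h (2.03% of all genes passed that rule). The other 96 were not. In that group the DMSO level had dropped to a median of 37.7% of 0 h and the AZ-5576 level was at 78.1%. H2AC11, a histone gene with 139 reads at 0 h, 37 in DMSO and 102 in AZ-5576, was one of these. At 4 h, 117 of the 168 were above DMSO (13.1% of all genes were). The rule for risen picks genes read low in DMSO at 8 h, here with a median of 20.5 reads. A DMSO level below 0 h in the group of 96 is therefore partly set by that choice. Genes so rare in DMSO also passed the filter on mean reads partly through other libraries.

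Genes at least 4-fold higher are described apart, since few fly genes reached that fold. They numbered 47, among them 22 protein-coding genes, 16 antisense or intergenic noncoding RNAs, 4 genes of small nuclear or other small RNAs and 2 pseudogenes. All were rare in DMSO, with a median of 7 reads, and had a median of 124 reads in AZ-5576. At 4 h 44 of them were above DMSO (13.1% of all genes were), and 33 were at least 2-fold above it (1.03% of all genes were). At 8 h 41 were above the 0 h level (794 of all 11797 genes were). Labelled reads were 545 of their 7299 reads in AZ-5576, or 7.47%, against 25.5% over all genes compared. In DMSO 48 of their 563 reads were labelled, a share close to that in AZ-5576.

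The highest rises were in some small RNA genes, but most genes of these types did not rise. Of 13 snRNA genes 4 rose and 1 was emptied, with a median of 59.1% of DMSO, and of 12 genes of the miscellaneous RNA class 3 rose and 2 were emptied, with a median of 45.1%. RNU4ATAC, a small nuclear RNA of the minor spliceosome, was at 47.3%. RNVU1-25, a variant of the U1 small nuclear RNA, was at 6.08 scaled reads at 0 h. It read 31.5, 21.9 and 25.5 in DMSO and 180.7, 198.2 and 424.7 in AZ-5576. The 8 h values rest on 45 and 1005 reads and give a 16.5-fold difference (12.3 to 23.0). Another U1 gene (ENSG00000273727, chromosome 1) went from 3 reads to 452, 96.3-fold higher (38.2 to 547). RNU6-918P, a U6 pseudogene, had 0 reads in DMSO and 211 in AZ-5576, at least 52.4-fold higher, and RN7SL827P, a 7SL pseudogene, 0 and 169, at least 42.0-fold higher. The 7SK gene itself (ENSG00000202198) had 18 and 63 reads. U1 genes exist in many near-identical copies, so the gene of origin of these reads is uncertain. Mature small nuclear RNAs have no poly(A) tail.

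Among protein-coding genes with at least 100 reads in one of the 2 libraries the highest were CCNP, DHX58, LAT2, PTAFR, ACTA1 and ACTC1. CCNP, a cyclin-like gene, was at 2.70 scaled reads at 0 h. It stayed at 4.14, 2.92 and 3.97 in DMSO and read 24.2, 103.5 and 132.3 in AZ-5576, 31.2-fold higher at 8 h (15.98 to 83.6, from 7 and 313 reads). DHX58, an RNA helicase of antiviral sensing, had 4 and 174 reads, and LAT2, an adaptor of immune receptors, 4 and 154. PTAFR, the receptor for platelet-activating factor, had 6 and 124 reads. ACTA1 and ACTC1, the skeletal and cardiac muscle actins, had 8 and 151 reads and 7 and 133 reads. ACTC1 was at 64.7 scaled reads at 4 h and 56.2 at 8 h in AZ-5576, against 2.92 and 3.97 in DMSO. Of the genes with fewer reads, BMP4, a secreted growth factor, had 0 and 58 reads. APOA1, an apolipoprotein of liver and gut and one of the markers of other lineages, had 1 and 84 reads (10.9 to 2502-fold). Muscle, known for ACTA1 and ACTC1, and liver, known for APOA1, are not the tissue of K562 cells.

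Many of these genes lie behind an expressed gene. Of 46 genes at least 4-fold higher that are placed on a nuclear chromosome, 20 (43.5%) begin within 10 kb of the end of a gene on the same strand with at least 200 reads in DMSO. The share was 12.47% over all genes compared, 18.02% over genes with under 50 reads in DMSO, 14.1% over persisting and 8.23% over emptied genes. DHX58 begins 375 bases after KAT2A, LRRN4CL 376 after BSCL2, LAT2 2551 after EIF4H, CCNP 3620 after AKT2, PTAFR 5520 after DNAJC8, ACTA1 6162 after NUP133 and FGF18 8519 after NPM1. The 20 upstream genes themselves were at 9.79% to 92.7% of DMSO, with KAT2A at 32.5% of DMSO, AKT2 at 31.8% and NUP133 at 13.5%. These pairs were listed after their values had been seen. The reads themselves were not used here, so transcripts that run on from the upstream gene cannot be told apart from transcripts that begin at the gene.

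The hexamer TATAAA, the core of the TATA box, was sought on both strands in 300 bases of promoter, from 250 before to 50 after the start (RefSeq, GRCh38.p14). It was found in 12.0% of all 27305 promoters in the table, 5.23% of 8409 genes compared, 6.19% of emptied, 7.41% of persisting and 9 of 67 risen genes. Of the 16 matched genes at least 4-fold higher 3 had it, and all 3 had it 29 to 31 bases before the start. The 60 bases before the start of these genes are printed 5′ to 3′ on the strand of the gene, with the hexamer in capitals, since they are the genes among the highest rises whose own promoter holds it.
ACTA1 (chr1:229434095-229434154, minus strand, 8 reads in DMSO and 151 in AZ-5576): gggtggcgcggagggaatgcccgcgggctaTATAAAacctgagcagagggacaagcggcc
ACTC1 (chr15:34795550-34795609, minus strand, 7 and 133 reads): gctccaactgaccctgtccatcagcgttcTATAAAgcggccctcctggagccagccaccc
GCNA (chrX:71578377-71578436, plus strand, 45 and 299 reads): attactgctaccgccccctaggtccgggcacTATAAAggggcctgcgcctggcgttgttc

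Some RNAs that were low at 4 h were higher again at 8 h. Of 823 genes at or below 25% of DMSO at 4 h, 679 were lower still at 8 h in AZ-5576, with a median over the 823 of 54.6% of the 4 h level. A further 144 were higher, 29 of them by at least 1.5-fold with an interval above 1. The genes were chosen by the 4 h library, which is also the base of these folds. Higher values at 8 h are therefore partly set by the choice, and a recovery was not tested. The share of all genes compared that were higher at 8 h than at 4 h in AZ-5576 was not taken. Between the 8 h libraries, which are a different pair, 273 of 5373 fly genes (5.08%) met the same rule. JUN, which is part of AP-1, was at 273.0 scaled reads at 0 h. It read 166.8 at 2 h, 65.4 at 4 h and 154.3 at 8 h in AZ-5576, and between 542.2 and 549.0 in DMSO. The rise from 4 to 8 h rests on 96 and 365 reads and was 2.35-fold (1.88 to 2.99), which took JUN from 12.0% to 28.1% of DMSO. TXNIP, a thioredoxin inhibitor, rose 1.54-fold from 464 to 1153 reads, the cell cycle inhibitor CDKN1B 1.77-fold, and ARRDC3 2.66-fold. The ribosomal protein pseudogenes RPL12P19 and RPL38P5 rose 4.992-fold and 6.53-fold. Of the 365 JUN reads 32 were labelled, as were 85 of the 1153 TXNIP reads.

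Labelled RNA taken gene by gene was higher in AZ-5576 for many genes whose total was lower. NFIC, a transcription factor, had 426.4 labelled scaled reads at 0 h. It read 403.1, 182.7 and 29.5 in DMSO at 2, 4 and 8 h, and 303.4, 309.9 and 160.6 in AZ-5576. Labelled NFIC at 8 h was thus 5.40-fold higher (4.07 to 7.42), while unlabelled NFIC was at 55.0% of DMSO and total NFIC at 68.1%. FAM229A had 4 labelled reads in DMSO and 106 in AZ-5576, with 62 at 0 h. OSBPL7, CPEB4 and RNF6 were 5.52-fold, 5.15-fold and 5.02-fold higher. For these 5 genes the label was kept in AZ-5576 to a degree that was not seen in DMSO.

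Labelled RNA was lower in AZ-5576 for 2654 of the 9283 genes (28.6%). The lowest labelled ratios by the rule for named genes were those of GTF2H4, FAM216A, PPP1R15A, NGDN and ACIN1, at 26.0%, 27.1%, 33.7%, 34.8% and 36.5% of DMSO. GTF2H4, a subunit of the initiation factor TFIIH, had 43.9 labelled scaled reads at 0 h. It then read 51.3, 59.2 and 59.0 in DMSO, so that its label did not fall there during the chase, and 49.2, 24.5 and 15.2 in AZ-5576. PPP1R15A, a phosphatase subunit of the stress response, lost label in both, from 239.2 at 0 h to 56.7 in DMSO and 19.02 in AZ-5576. The emptied genes as a whole had labelled medians of 13.1% of 0 h in DMSO and 11.01% in AZ-5576 over 789 genes with at least 50 labelled reads at 0 h. Over all 7531 such genes these were 32.9% and 41.9%.

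JQ1 at 8 h was read against the same DMSO library, so its values share that control and are set beside those of AZ-5576 without a comparison. MYC was at 31.5% under JQ1 and 0.863% under AZ-5576, and KLF1 at 9.69% and 3.24%. MCL1 was at 147% and 6.497%, SOCS3 at 213% and 1.03%, DNAJB1 at 267% and 4.06%, and HEXIM1, a gene known to be induced by BET inhibitors, at 397% and 6.22%. HBG2 was at 93.5% and 99.9%. Of the 47 genes at least 4-fold higher under AZ-5576, 46 were above DMSO under JQ1, with a median of 3.50-fold. Of all 11797 genes compared 3269 were, with a median of 0.806-fold. All ratios of the 47 genes use the same low DMSO counts. Genes this rare in DMSO also passed the filter on mean reads through other libraries, which include those of JQ1.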

How the data were processed

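The authors deposited raw read counts per gene for all human reads, for reads they call nascent and for fly reads, in 10 libraries. Per the labels' protocols these are 3′ end libraries with base conversion of 4-thiouridine. The submitters' processing notes name the builds hg38 and dm6 and the tools bedtools, Trim Galore (version 0.6.5) and bcl2fastq (version 2.17.1.14). The aligner, the counting tool, the annotation and the rule for a nascent read are not given in the sources used here. Unlabelled counts are total minus nascent counts, and no gene had more nascent than total reads. Counts were divided by the fly total of the library. Folds, intervals and classes were computed in Python 3.11.15 (pandas 2.3.3, numpy 2.4.6, scipy 1.17.1) and tested on simulated data. TMM factors came from edgeR 4.0.16 in R 4.3.3. Symbols were matched for 55381 of 59204 identifiers, and 11695 of the 11797 genes compared are in GENCODE 29. The chosen transcript is 1 basic transcript per gene. Total reads per library ran from 10293371 to 16008906.

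The 27 gene lists, the thresholds and the genes were chosen with earlier results of these data known. Named genes are the 10 lowest with at least 200 reads in DMSO, the 10 highest risen with at least 100 reads in one of the 2 libraries, the 8 most read persisting genes other than ribosomal protein genes and annotated mitochondrial messengers, the 5 highest and 5 lowest by labelled and the 5 highest by unlabelled ratio, a panel of known targets and housekeeping genes, and in each list the lowest, the highest and those most read. The genes behind an expressed gene, those higher at 8 h than at 4 h, those with printed sequences and list members named to show a split were chosen after their values were seen. With 1 library per condition no test was run. The values of some list members are not reported here.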

Additional observations from a re-analysis of the deposited data

Results flagged for a closer look

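For 7 named genes the total reads in AZ-5576 lay on opposite sides of DMSO at 4 h and at 8 h, with both counting intervals excluding 100%. Each time has 1 library per arm, so the difference between the times was not tested. UBE2C, a ubiquitin-conjugating enzyme of mitosis, was at 41.3% at 4 h (17 and 39 reads) and 289% at 8 h (48 and 12 reads). FTH1 was at 116% and 97.1%, and MT-TF at 108% and 93.2%. HSPB1 was at 93.4% and 104%, NDUFB1 at 89.8% and 108%, MTATP8P1 at 97.2% and 114%, and MTND1P23 at 97.7% and 103%. Apart from UBE2C these values lie within 1.2-fold of DMSO at both times.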

How the results depend on the processing

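No paired analysis was possible because each condition has 1 library, and for the same reason no replicate could be left out. A pseudocount of 1, or the point estimate alone as the rule, left every count of genes within 1.5 times its reported value. With fly genes scaled by their median ratio the total, unlabelled and labelled reads were 0.590, 0.506 and 1.1402 times DMSO.

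The scale matters most. With the library's human reads as the scale, emptied, persisting and risen genes numbered 655, 2585 and 1060 for total RNA, emptied and risen genes 1659 and 747 for unlabelled and 5 and 6906 for labelled RNA. The medians were then -0.88, -1.58 and 1.03 in log2 for total, unlabelled and labelled RNA, and the summed reads 1.0, 0.858 and 1.93 times DMSO. With TMM, which takes most genes as unchanged, the numbers were 271, 3768 and 3269, then 686 and 2115, then 3 and 8699, with medians of -0.056, -0.76 and 1.86. The summed reads turned to 1.77 and 1.52 times DMSO for total and unlabelled RNA and were 3.42 for labelled RNA.

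With DMSO at 4 h as the control, 1011 genes were emptied and 109 rose in total RNA. Only 921 of the 1506 emptied and 64 of the 168 risen genes kept their class. In unlabelled RNA 1912 genes were emptied, and in labelled RNA 121 were emptied and 96 rose. The medians were -1.36, -1.80 and, reversed, -0.59, and the summed reads 0.607, 0.572 and, reversed, 0.740. Against the 0 h library, which was added once the data had been seen, 571 genes were emptied and 240 rose in total RNA. Here 523 of the emptied and 72 of the risen genes kept their class. In unlabelled RNA 337 genes were emptied and 489 rose, and in labelled RNA 977 were emptied and 69 rose. The medians were -1.01, -0.83 and, reversed, -1.24, and the summed reads 0.658, 0.720 and, reversed, 0.525. Of the named genes called emptied or risen, H2AC11 reversed to -0.37 and -1.12 in log2 against these controls and UBE2C to -0.49 against DMSO at 4 h.

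With a mean of at least 100 reads, 859 genes were emptied, 867 persisted and 30 rose in total RNA, and 2363 were emptied and 27 rose in unlabelled RNA. With any gene of at least 1 read in the pair, these were 2518, 5846 and 599 in total RNA, 485 rose in unlabelled and 126 were emptied in labelled RNA, and the medians were -1.40, -2.01 and 0.35. When the whole interval had to pass the fold, 814 were emptied, 791 persisted and 86 rose in total RNA, 2162 were emptied and 74 rose in unlabelled, and 2 were emptied and 820 rose in labelled RNA. Without mitochondrially encoded genes the labelled share was 28.0% in AZ-5576 and 13.8% in DMSO. Rises in genes of few reads are the least certain, since a fly gene of 40 to 200 reads varies by 0.51 in log2 between the libraries.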
